A study of Mus musculus with 2 samples.

Results

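The genes described here are the small GTPases of the Rab and Arf families that direct membrane traffic. They were chosen by symbol alone, as every line of both count tables whose name is Rab followed by a number and an optional letter from a to d, or Arf followed by a number from 1 to 6. This gave 64 of 32531 gene symbols, of which 58 are Rab and 6 are Arf genes. Ribosome-bound RNA was counted in 2 libraries of 1 group, both immunopurified from dentate gyrus. The mice were untreated adults of the line Lypd1-TRAP OI82 and carried the transgene Lypd1-EGFP/Rpl10a. In translating ribosome affinity purification (TRAP), ribosomes that carry an EGFP-tagged Rpl10a protein are pulled down with antibodies against EGFP, so the RNA comes mainly from the cells that express the transgene. Which cells those are is set by the regulatory sequence of Lypd1, and the labels call them neurons. The labels do not say whether the libraries came from separate mice or from pools, and their difference may in part be technical. No input library, untagged control or second cell type was analysed here, and with 1 group no test between conditions and no p-value is possible.

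Replicate 1 held 31309643 counts on gene lines and replicate 2 held 32711412. Granule cells are the main excitatory neurons of this region, and 5 of their 5 markers were detected, with summed levels of 2581 and 2652 counts per 1000000 gene-line counts (CPM) in replicates 1 and 2. The microglial genes C1qa and C1qb were at 0 in both libraries, and 0 of 4 microglial markers reached 1 CPM in both, with sums of 0.830 and 0.611 CPM. The summed levels of the other marker lists, in replicates 1 and 2, were 73.7 and 121 CPM for GABAergic neurons (3 of 5 detected), 163 and 119 CPM for oligodendrocytes (4 of 4), 46.2 and 54.8 CPM for astrocytes (3 of 4), 13.9 and 14.4 CPM for endothelial cells (2 of 3) and 8.05 and 3.67 CPM for mossy cells (2 of 4). In a pull-down of this kind, fewer cells of a type and less RNA per cell cannot be told apart.

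Rab and Arf proteins are molecular switches. Bound to GTP they sit on a membrane and recruit effectors such as motors, tethers and coats, and bound to GDP they are inactive. Guanine nucleotide exchange factors (GEFs) switch them on and GTPase-activating proteins (GAPs) switch them off. Rabs are anchored by lipid groups added at their carboxy terminus and are lifted from the membrane by GDP dissociation inhibitors, while Arfs are anchored by a myristoyl group at the amino terminus. Each Rab marks particular membranes, from the endoplasmic reticulum to the lysosome, and granule cells send their vesicles down the long mossy fibre axons to area CA3, where Rab3a is known to be needed for long-term potentiation.

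Because the families hold close paralogs, it matters whether a read can be assigned to 1 gene. The stretches below are 60 coding bases around the GTP-binding P-loop, one of the most conserved parts of these proteins, read from GENCODE M21 transcripts (build GRCm38). The capitals mark bases that differ from Rab3a in the Rab3 set and from Arf3 in the class I Arf set. Rab3a lies on chromosome 8 (70754679 to 70758677, plus strand), Rab3b on chromosome 4, Rab3c on chromosome 13 and Rab3d on chromosome 9.
Rab3a: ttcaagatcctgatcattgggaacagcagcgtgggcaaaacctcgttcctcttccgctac
Rab3b: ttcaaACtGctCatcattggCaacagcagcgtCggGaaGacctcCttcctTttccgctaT
Rab3c: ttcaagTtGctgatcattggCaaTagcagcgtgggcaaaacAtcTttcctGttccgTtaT
Rab3d: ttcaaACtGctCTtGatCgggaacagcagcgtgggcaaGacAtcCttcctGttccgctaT
Arf3 lies on chromosome 15 (98736634 to 98763214, minus strand), and Arf1 and Arf2 lie on chromosome 11.
Arf3: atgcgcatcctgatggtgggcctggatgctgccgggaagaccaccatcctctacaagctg
Arf1: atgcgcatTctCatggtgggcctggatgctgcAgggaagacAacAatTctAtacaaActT
Arf2: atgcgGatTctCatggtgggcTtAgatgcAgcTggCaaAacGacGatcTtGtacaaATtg
Even here Rab3b, Rab3c and Rab3d differed from Rab3a at 11, 9 and 12 of the 60 bases, and the longest run shared with Rab3a was 20 bases. Arf1 and Arf2 differed from Arf3 at 9 and 15 bases.

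Over whole coding sequences, the pairs within 15 paralog families were 69.1% (Rab33a and Rab33b) to 83.7% (Arf1 and Arf3) identical. Among all 50-base windows of annotated transcripts, only 6 of the 64 members shared any window with another member, and the largest share was 0.956% (Rab4b). Sharing with other kinds of gene was more common. Rab7 shared 12.7% of its windows, mostly with its pseudogene Rab7-ps1, and Rab11b shared 13.6%, mostly with Rab11b-ps2. Rab24, linked to autophagy, lies over the oppositely transcribed gene Prelid1, with which it shared 49.6% of windows, and Rab6a overlaps Mrpl48 in the same manner (19.0% of windows shared in all). The strand setting of the counting is not given in the sources used here, so the counts of Rab24 and, in part, of Rab6a, Arf4 (opposite Pde12) and Arf5 (opposite Gcc1) are uncertain. Rab26 shares exon bases with Traf7 on the same strand, which no strand setting separates. Rab4b, Rab2b and Rab43 shared 58.1%, 57.0% and 74.5% of windows, mostly with gene models (Gm21983, Gm43766 and Gm45140) that have no line in the count tables.

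Most of the family was present in the ribosome-bound RNA. In both libraries 54 of 64 members reached a CPM of at least 1, the level used here for detection. That is 84.4%, beside 38.1% of all gene symbols and 56.2% of protein-coding symbols. All 6 Arfs and 48 of 58 Rabs were detected. Levels of different genes are compared in CPM per kilobase of exon, since longer transcripts give more reads. On that scale the median detected member stood at 19.8 in replicate 1 and 22.1 in replicate 2, beside 5.33 and 4.95 for all detected genes with a length. The order of the 54 members was similar in the libraries (Spearman's rho 0.975 across genes, which are not independent replicates and share both libraries).

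The top of the order was narrow. The highest 5 members, Arf3, Rab2a, Rab7, Arf1 and Rab6b, held 62.1% of the summed CPM per kilobase of all members in replicate 1 and 63.1% in replicate 2. Arf3 was at 590 and 871 CPM per kilobase in replicates 1 and 2, and Rab2a at 630.1 and 625, so Rab2a led in replicate 1 and Arf3 in replicate 2. Rab7 followed at 402 and 401 and Arf1 at 376 and 324. Next came Rab6b (231 and 218) and Rab6a (182 and 214), whose values lay closest in replicate 2. Altogether 7 members, these 6 and Rab1, exceeded 100 CPM per kilobase in both libraries.

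**Figure D1:**
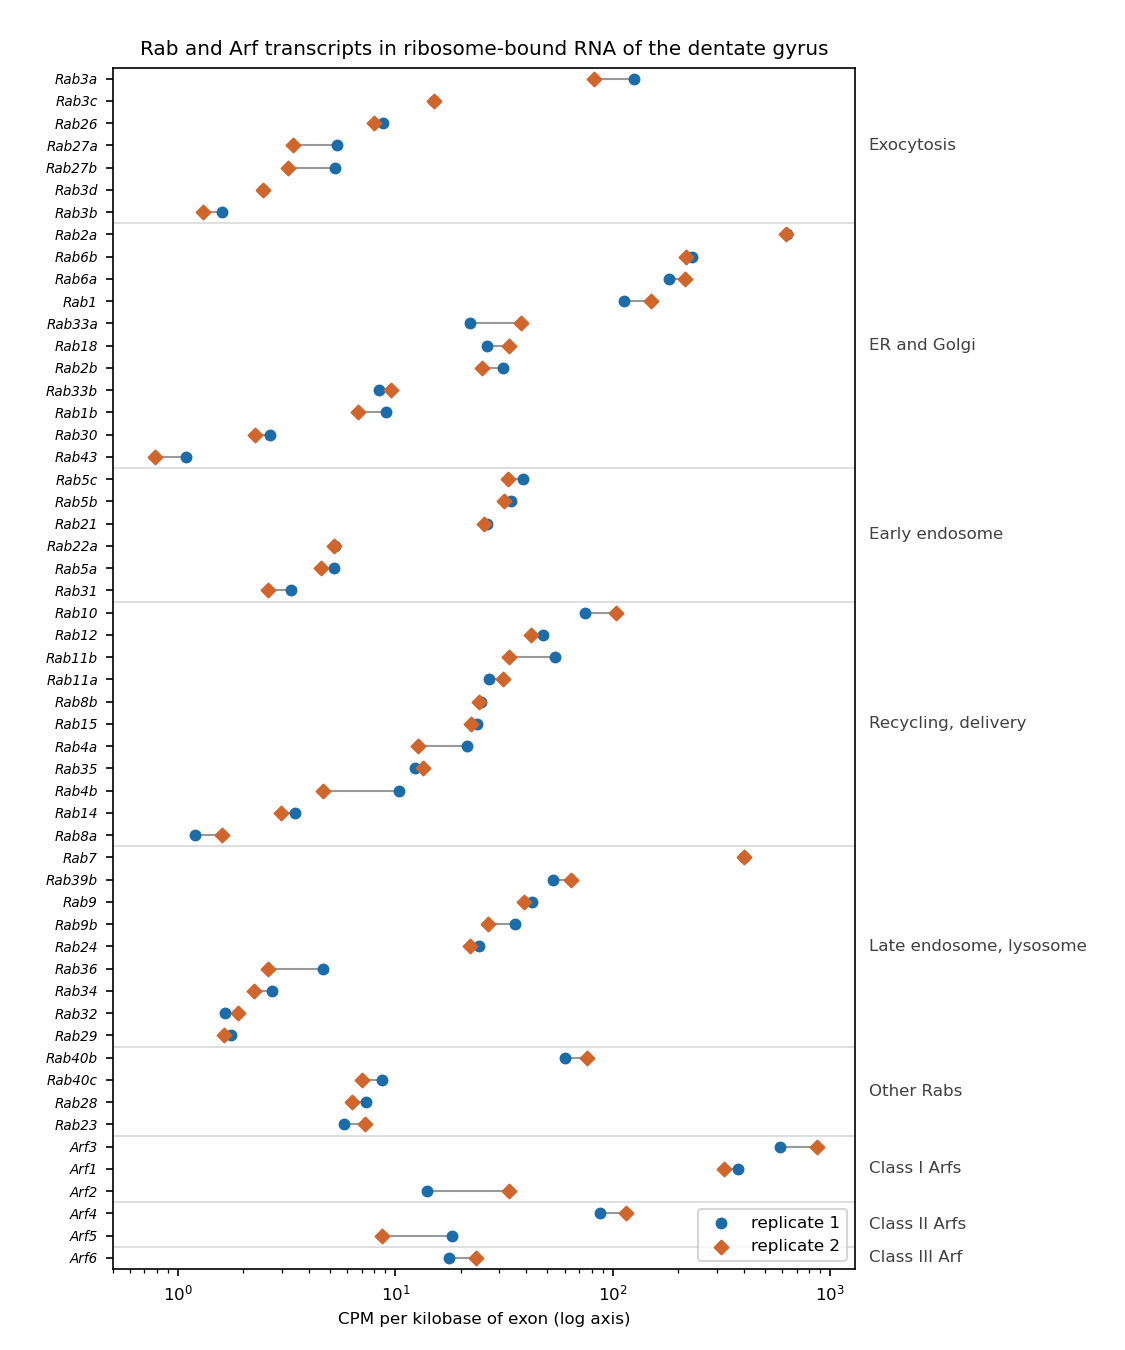
Level of each of the 54 detected members in CPM per kilobase of exon on a log axis. Rabs are grouped by the membrane or route they serve or as other Rabs, and Arfs by class. Circles are replicate 1 and diamonds replicate 2, joined by a line. Arf3, Rab2a and Rab7 stand above 400 in both libraries, and the diamond of Arf3 lies farthest right at 871.

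Per kilobase, Rabs of the endoplasmic reticulum and the Golgi were the largest of the Rab groups. Of 12 such genes, 11 were detected, and the group held 35.0% of the members' CPM per kilobase in replicate 1 and 34.2% in replicate 2, beside 30.7% and 35.6% for the 6 Arfs together. Rab2a, which acts between the endoplasmic reticulum and the Golgi and in the making of dense-core vesicles, had 1344 and 1334 CPM in replicates 1 and 2, the order kept in all pairs of values that follow. On gene-line totals the libraries lay within 1% of each other for Rab2a, with 42083 and 43621 counts behind the values. On TMM-scaled totals, used for the ratios below, its log2 ratio of replicate 2 over replicate 1 was 0.08 (counting interval 0.06 to 0.10). Rab6b, the form of the Golgi GTPase Rab6 that is enriched in neurons, had 1164 and 1097 CPM, and the widely expressed Rab6a had 677 and 798 CPM. Rab1, an older symbol of Rab1a, which starts transport from the endoplasmic reticulum to the Golgi, was at 430 and 571 CPM and was higher in replicate 2.

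The lower members of this group included Rab18, which works at the endoplasmic reticulum and lipid droplets and is on chromosome 18, at 180 and 229 CPM. Rab33a, an X-linked gene linked to vesicles that travel into growing axons, was at 25.5 and 43.9 CPM. Its paralog Rab33b, a Golgi protein, was at 29.7 and 33.7 CPM. Rab2b (130.0 and 105 CPM), Rab30 (25.4 and 21.8 CPM) and Rab1b (20.6 and 15.2 CPM) had less in replicate 2, and Rab43 was the lowest detected at 6.005 and 4.34 CPM. Rab19 had 0 counts in both libraries.

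Among the exocytic Rabs, Rab3a stood apart. This protein sits on synaptic vesicles and binds RIM at the release site. Its levels were 277 and 182 CPM, lower in replicate 2. Rab3c, a second synaptic vesicle Rab, was at 181 and 182 CPM, so in raw reads Rab3a and Rab3c were nearly equal in replicate 2. Its annotated exons are far longer, 12049 bases against 2226 for Rab3a, and per kilobase Rab3a stood at 125 and 81.7 and Rab3c at 14.998 and 15.1. Rab3d, known from secretory granules of exocrine cells, was at 10.3 CPM in both libraries. Rab3b was the lowest of the family at 5.59 and 4.62 CPM. Of the summed CPM per kilobase of the 4 Rab3 genes, Rab3a held 86.7% in replicate 1 and 81.2% in replicate 2.

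Rab27 proteins dock secretory granules and some synaptic vesicles. Rab27b, on chromosome 18, was at 56.4 and 34.3 CPM. Rab27a was at 20.98 and 13.1 CPM. Both were lower in replicate 2, and per kilobase they were alike in each library (5.41 and 3.37 for Rab27a, 5.28 and 3.21 for Rab27b). Rab26, which directs synaptic vesicles to autophagy, was at 24.9 and 22.8 CPM. Rab37, described in secretory granules of immune and endocrine cells, had 1 count in replicate 1 and 11 in replicate 2. A count of 0 allows up to 3 counts, or 0.0958 and 0.0917 CPM in replicates 1 and 2, and these limits, like all intervals given here, cover counting error only.

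The early endosome Rabs had a median of 5.29 and 5.25 CPM per kilobase, beside 11.4 and 9.11 over all 64 members. Of 7 early endosome genes 6 were detected. The Rab5 proteins, which drive fusion of early endosomes, were carried by Rab5b (143 and 132 CPM) and Rab5c (84.4 and 72.1 CPM), with Rab5a at 27.4 and 24.0 CPM. Per kilobase Rab5c and Rab5b were close, at 38.5 and 34.0 in replicate 1 and 32.9 and 31.5 in replicate 2, while Rab5a was at 5.20 and 4.56. Rab21, which guides integrin uptake, was at 133 and 128 CPM. Rab22a was at 38.1 and 37.8 CPM and Rab31 at 12.6 and 9.90 CPM. Every detected early endosome gene was within 1.5-fold between the libraries. Of all genes, 26.9% of those averaging 1 CPM or more and 16.6% of those averaging 10 or more passed that fold. With only 6 genes, this does not set the group apart. Rab20, a phagosome Rab, had 0 counts.

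Of 14 Rabs of recycling and delivery to the plasma membrane, 11 were detected. Rab10, which carries membrane to the growing axon and is a substrate of the kinase LRRK2, was at 262 and 364 CPM and led the group per kilobase in both libraries. Rab11b, at 331 and 203 CPM, had more reads than Rab10 in replicate 1 and fewer in replicate 2, and Rab11a, the form best known for moving AMPA receptors into dendritic spines, was at 80.9 and 93.8 CPM. Rab11a and Rab11b went in opposite directions between the libraries. Per kilobase Rab11b was 1.998 times Rab11a in replicate 1 and 1.06 times in replicate 2. Rab8b, which acts in traffic from the trans-Golgi network, was at 117 and 115 CPM, against 5.62 and 7.46 CPM for Rab8a. Rab4a and Rab4b, which serve rapid recycling, were at 37.5 and 22.3 CPM and at 20.5 and 9.17 CPM. Both were lower in replicate 2. Rab12 (146 and 127 CPM), Rab15 (109 and 102 CPM), Rab14 (47.05 and 40.5 CPM) and Rab35 (34.9 and 37.7 CPM) were each within 1.5-fold between the libraries.

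Late endosomes and lysosomes were represented by 9 detected genes of 11. Rab7, which controls maturation of late endosomes and carries neurotrophin signals back along axons, was at 1050.1 and 1047 CPM. It had 32877 and 34246 counts, and its log2 ratio on TMM-scaled totals was 0.09. Rab39b, an X-linked gene whose loss causes intellectual disability in humans, was at 181 and 218 CPM. Its paralog Rab39 was near the detection limit at 1.98 and 0.642 CPM. Rab9 and Rab9b, which return receptors from late endosomes to the Golgi and are both X-linked, were at 74.0 and 68.3 CPM and at 142 and 106 CPM. Rab24 was at 48.7 and 44.2 CPM and Rab34 at 6.48 and 5.35 CPM. Rab36 was lower in replicate 2, at 28.7 and 16.0 CPM. Rab32 and Rab29, linked to lysosome-related organelles and to LRRK2, were at 3.83 and 4.43 CPM and at 2.59 and 2.38 CPM.

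The remaining Rabs include Rab40b, one of a subfamily that recruits ubiquitin ligase subunits through a SOCS box. It was at 121 and 153 CPM and, per kilobase, at 60.3 and 76.03, which placed it among the top 12 members. Rab40c was at 27.0 and 21.8 CPM. Rab23, an inhibitor of hedgehog signalling, was at 48.3 and 60.2 CPM, and Rab28, a Rab of cilia, at 33.1 and 28.7 CPM.

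Class I Arfs recruit the COPI and clathrin adaptor coats at the Golgi. Arf3 was the most abundant member by reads, at 2845 and 4201 CPM, from 89080 and 137422 counts. Arf1 was at 785 and 677 CPM, and went the other way. Arf2, a gene that mice have and humans lack, was at 41.9 and 99.5 CPM, the largest ratio upward of any member averaging 10 CPM or more. Among class II Arfs, Arf4 was at 315 and 414 CPM and Arf5 at 34.8 and 16.6 CPM. Arf6, which acts at the plasma membrane and in recycling, was at 27.0 and 35.9 CPM.

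Over gene-line totals, the Rabs together came to 8008 and 8006 CPM. This near equality depends on that scaling, since the TMM factors of 1.03 and 0.968 would lower the first sum and raise the second. The Arfs together came to 4049 and 5444 CPM, and Arf3 alone made up most of that gap. Without Arf3, the summed level of all members fell to a mean of 9230.4 CPM from 12753.5 ± 985 CPM (SD, n = 2). Per kilobase the Rabs held 69.3% of the members' level in replicate 1 and 64.4% in replicate 2.

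Paralog choice was uneven in most families. In all 15 families the same paralog led per kilobase in both libraries, but 4 of those leads turned in at least 1 library when the longest transcript was used in place of all exons (Rab5, Rab6, Rab11 and Rab27). The clearest leads were Rab39b over Rab39 (98.8% and 99.7% of the family), Rab2a over Rab2b (95.3% and 96.1%), Rab8b over Rab8a (95.4% and 93.8%) and Rab1 over Rab1b (92.6% and 95.7%). Rab40b held 87.4% and 91.5% of its pair, and Arf4 held 82.7% and 92.96%. Rab6a with Rab6b, Rab9 with Rab9b, and Rab27a with Rab27b shared their families more evenly, with 50.5% to 59.4% for the leading gene.

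**Figure D2:**
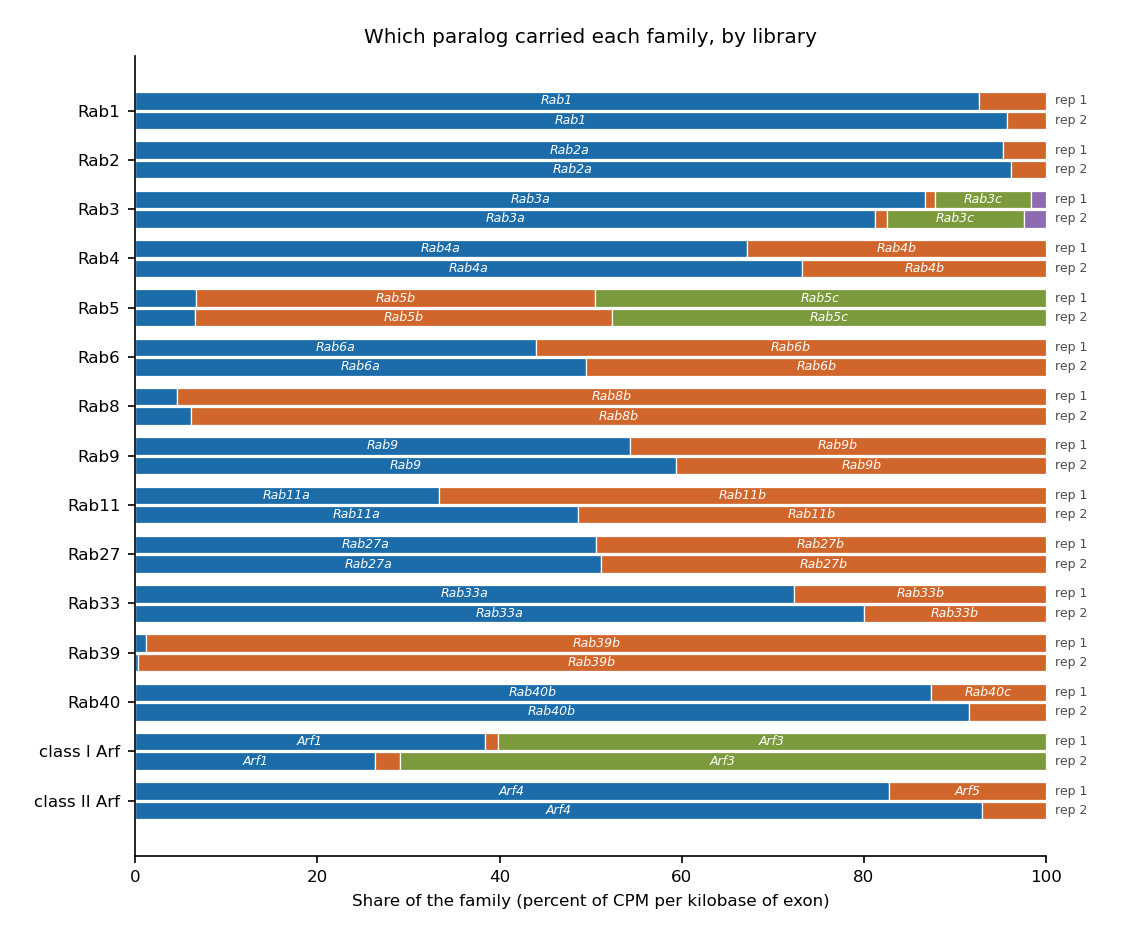
Share of each paralog in the CPM per kilobase of its family, as stacked bars from 0 to 100%, with replicate 1 above replicate 2 in each of 15 families. Segments follow the alphabetical order of the paralogs and the larger ones carry their names. Rab2a, Rab8b and Rab39b each hold over 90% of their family in both libraries, while Rab6, Rab9 and Rab27 are split.

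The 10 members that were not detected were Rab13, Rab17, Rab19, Rab20, Rab25, Rab37, Rab38, Rab39, Rab42 and Rab44. Several are known from other tissues. Rab25 and Rab17 serve recycling in polarised epithelia, Rab13 is found at tight junctions, and Rab38 acts in pigment cells. Rab19, Rab20, Rab25 and Rab44 had 0 counts in both libraries. Rab38 had 21 counts in replicate 1 and 0 in replicate 2, Rab17 had 11 and 0, and Rab42 had 3 and 2. Rab13, with 40 and 24 counts, and Rab39, with 62 and 21, passed 1 CPM in replicate 1 only.

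Upstream sequence was set beside these levels, since many genes used by all cells start in DNA rich in CG. RefSeq start sites (GRCm38.p6) were matched for 53 of 64 members, and the CG dinucleotide, which reads the same on both strands, was counted in the 250 bases before the start. For genes with several starts, the start with most CG was used. Shown are Rab6b, an abundant gene, Rab25, with 0 counts, and Rab39b, an abundant gene with few CG, with each CG in capitals. Rab6b is at chr9:103111824-103112073 (plus strand), Rab25 at chr3:88548280-88548529 (minus strand) and Rab39b at chrX:75578232-75578481 (minus strand). The GENCODE M21 starts differ for Rab6b and Rab25. There Rab6b begins at 103111787, so its window lies inside that gene model. The Rab25 model reaches to 88548300 and overlaps its window in part, so these windows are upstream of the RefSeq starts only.
Rab6b: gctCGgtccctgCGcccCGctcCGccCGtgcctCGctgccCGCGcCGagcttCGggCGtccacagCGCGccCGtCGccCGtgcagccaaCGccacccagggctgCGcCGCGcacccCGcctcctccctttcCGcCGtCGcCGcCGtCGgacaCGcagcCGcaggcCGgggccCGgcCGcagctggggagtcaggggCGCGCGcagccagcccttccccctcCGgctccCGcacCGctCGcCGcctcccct
Rab25: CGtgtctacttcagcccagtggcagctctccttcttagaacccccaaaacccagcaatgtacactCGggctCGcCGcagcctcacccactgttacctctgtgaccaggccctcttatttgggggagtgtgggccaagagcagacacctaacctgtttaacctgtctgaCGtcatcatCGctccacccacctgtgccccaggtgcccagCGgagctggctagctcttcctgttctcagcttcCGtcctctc
Rab39b: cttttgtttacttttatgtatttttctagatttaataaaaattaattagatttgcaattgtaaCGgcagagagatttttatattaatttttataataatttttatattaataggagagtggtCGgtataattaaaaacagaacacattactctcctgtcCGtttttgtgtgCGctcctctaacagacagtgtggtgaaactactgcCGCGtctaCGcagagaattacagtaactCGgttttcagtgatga
Rab6b had 40 CG in its window, and Rab25 and Rab39b had 8 each.

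Over the matched members, the median was 20.5 CG for the 46 detected and 8 CG for the 7 not detected. A count of at least 15 CG, a minimum chosen after the values were seen, was met by 32 of the 46 (69.6%) and by 2 of the 7. The same minimum was met by 63.4% of 8812 detected protein-coding genes and by 13.9% of 6637 that were not detected, so detected members are close to detected genes at large. Rab39b was not alone among the abundant genes with few CG, since Rab3c (7), Rab11b (9) and the X-linked Rab9 (7) were similar. The counts describe the windows and say nothing of the factors that act there.

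**Figure D3:**
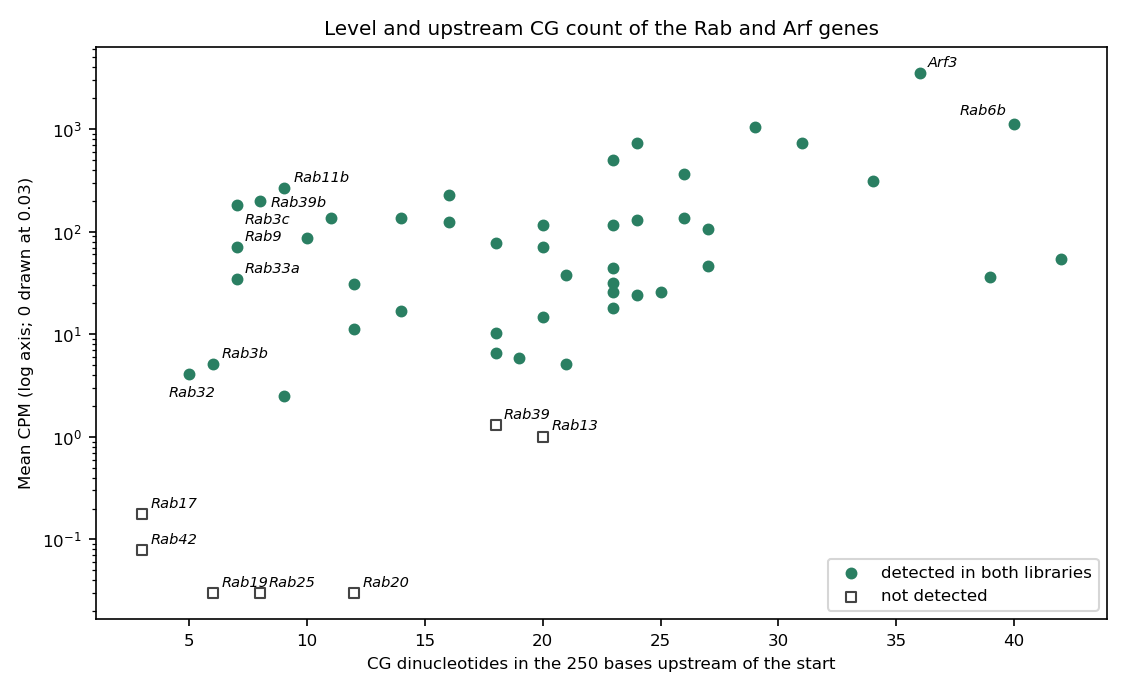
Mean CPM of the 2 libraries on a log axis, with 0 drawn at 0.03, for the 53 matched members. The other axis is the number of CG dinucleotides in the 250 bases upstream of the RefSeq start. Filled circles were detected in both libraries and open squares were not. Of the squares, 5 lie at 12 CG or fewer, and Rab39b, Rab3c and Rab11b are high with fewer than 10.

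The libraries differed little in most members. Log2 ratios of replicate 2 over replicate 1 used TMM-scaled totals, and of the 56 members averaging 1 CPM or more, 44 were within 1.5-fold. The other 12 make 21.4%, beside 26.9% of all 13089 genes at that level. Of these, 3 were higher in replicate 2, where the background is 12.6%, and 9 were lower, where it is 14.3%. Past 2-fold were 3 of 56, beside 10.3%, with Arf2 higher (background 4.51%) and Rab4b and Rab39 lower (5.75%). Ratios above 0 were found in 26 of 56, beside 49.2%. Among the 48 members averaging 10 CPM or more, 10 were past 1.5-fold (20.8%), beside 16.6%. Of those, 3 were higher, with a background of 9.44%, and 7 were lower, with a background of 7.12%, so the lower calls exceeded their background share there. At that level Arf2 and Rab4b were past 2-fold, beside 3.19% of genes (2.18% higher and 1.01% lower). The members' median log2 ratio was -0.02, and that of all genes was -0.01. The share past 1.5-fold was thus below the background at a mean CPM of at least 1 and above it at 10 or more.

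Among members averaging 10 CPM or more, Arf2 had the largest ratio upward (log2 ratio 1.34, 95% exact counting interval 1.25 to 1.43), followed by Rab33a (0.88, 0.75 to 1.004) and Arf3 (0.65, 0.64 to 0.67). Rab10 was next at 0.57 (0.53 to 0.61), within 1.5-fold. Downward the order was Rab4b (-1.07, -1.27 to -0.87), Arf5 (-0.97, -1.13 to -0.83), Rab36 (-0.75, -0.91 to -0.59) and Rab4a (-0.65, -0.79 to -0.52). Rab27b (-0.63), Rab11b (-0.61) and Rab27a (-0.59) also passed 1.5-fold, as did the scarce Rab39 and Rab13, and Rab3a, at -0.52 (-0.56 to -0.47), did not. With library totals alone, which move the median of all genes to -0.10, Arf3 came to 0.56, within 1.5-fold, and Rab3a to -0.61, past it. Rab27a came to -0.58 with DESeq2 size factors, within 1.5-fold. After a fit on transcript length and GC content was removed, Rab4a came to -0.51, within 1.5-fold, and Arf6 to 0.81 from 0.51, past it. The genes past 2-fold also changed with the setting. With the length and GC fit removed, Rab4b came to -0.82, within 2-fold, and Rab33a to 1.03, past it. With library totals alone Arf5 came to -1.07, past 2-fold. The counting intervals above compare the 2 libraries and not conditions. Marker sums of other cell types also differed between the libraries, as given above. In the GABAergic list Gad1 (50.02 and 75.6 CPM) and Gad2 (19.7 and 42.8 CPM) carried the higher sum of replicate 2, and Pvalb had 3 and 10 counts. Slc32a1 (22 and 12 counts) and Sst (99 and 71 counts) went the other way, so the list's members disagree. Lower in replicate 2 were all 4 oligodendrocyte markers and 3 of the 4 mossy cell markers, with Calb2 at 111 and 47 counts and Csf2rb2 at 92 and 37. The part of these cell types in the members' ratios was not tested.

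**Figure D4:**
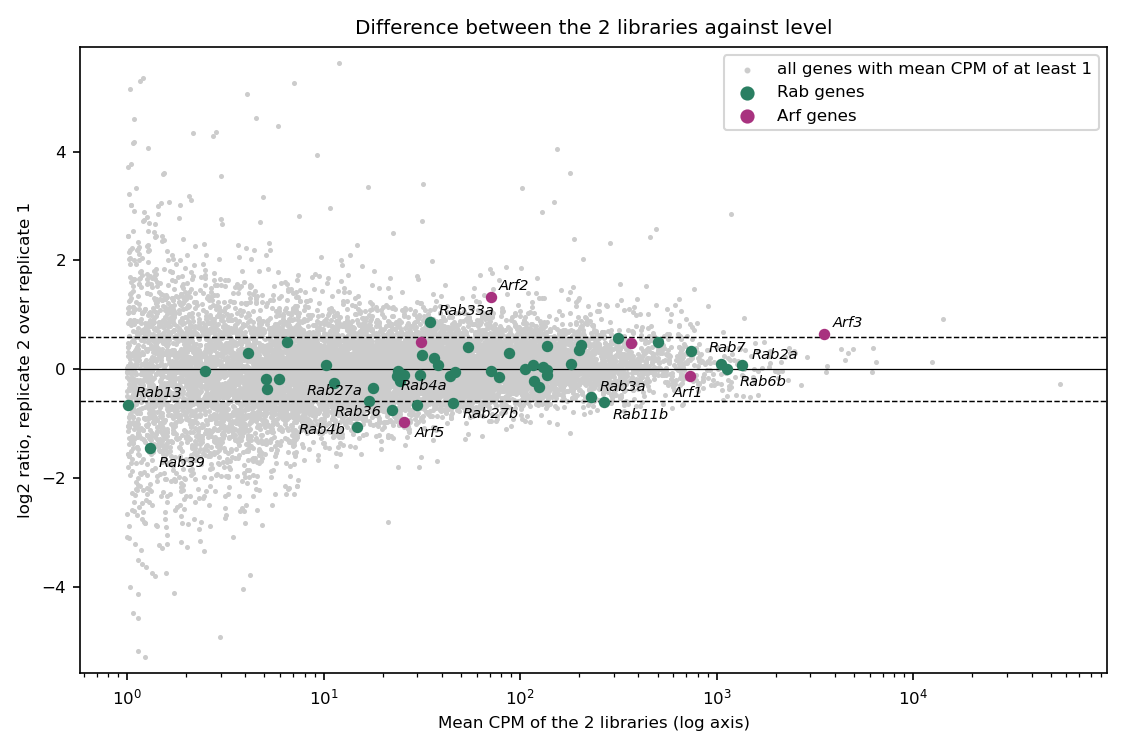
Log2 ratio of replicate 2 over replicate 1 against mean CPM on a log axis. Grey points are the 13089 genes averaging 1 CPM or more, green points are Rab genes and magenta points Arf genes, and dashed lines mark 1.5-fold. Most members lie between the lines, with Arf2, Rab33a and Arf3 above and Rab4b and Arf5 among those below.

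Most genes of the proteins that run the Rab and Arf cycle were detected. Of 180 genes in 7 lists, 162 were, which is 90%, beside 38.1% of all gene symbols and 56.2% of protein-coding symbols. All 11 genes of Rab extraction and prenylation were detected. Gdi2, a GDP dissociation inhibitor, was at 203 and 264 CPM. Rabggtb, the catalytic subunit of the enzyme that adds lipid groups to Rabs, was at 101.3 and 158 CPM (log2 ratio 0.73). Praf2, a Golgi protein of the prenylated Rab acceptor family, was at 56.7 and 39.0 CPM. In this list 3 genes passed 1.5-fold upward and 1 downward, with a median ratio of -0.13.

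Of 32 Rab exchange factors 28 were detected, led per kilobase by the Rab11 exchange factor Sh3bp5 (277 and 238 CPM), Rab3ip, which activates Rab8 (80.2 and 126 CPM), Madd, which activates Rab3 (211 and 226 CPM), and Dennd5a (151 and 123 CPM). Of the 30 averaging 1 CPM or more, 2 passed 1.5-fold upward and 4 downward. Of 33 Rab GAPs 32 were detected, led by Rabgap1l (428 and 443 CPM) and Tbc1d14 (150.2 and 114 CPM), then Tbc1d30 (86.0 and 76.2 CPM) and Tbc1d15 (46.5 and 50.7 CPM), with 1 higher and 3 lower. Effectors numbered 34 detected of 42. Rph3a (rabphilin), which binds Rab3 and Rab27 on vesicles, led at 654 and 443 CPM (log2 ratio -0.47). Rilpl1 (206 and 267 CPM), the motor Myo5a (524 and 590 CPM) and the Rab5 effector Rabep1 (221 and 252 CPM) followed. Lrrk2, a kinase that phosphorylates several Rabs, was at 13.2 and 28.4 CPM (log2 ratio 1.19). The effector list had 2 genes higher and 4 lower of 35.

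Regulators of Arfs gave a like picture. Of 16 Arf exchange factors 15 were detected, led per kilobase by the Arf6 activators Psd3 (451 and 663 CPM, log2 ratio 0.65) and Iqsec2 (185 and 120 CPM, -0.53), then Arfgef1 (219 and 202 CPM) and Cyth1 (61.6 and 40.1 CPM). Of 23 Arf GAPs 20 were detected, with Smap2 (297 and 374 CPM) and Agap2 (404 and 376 CPM) the highest, then Git1 (163 and 122 CPM) and Agap3 (157 and 120 CPM). In the Arf effector list, which also holds Golgi genes not shown here to be Arf effectors (Golph3 and Gosr1), 22 of 23 genes were detected. Golph3, a Golgi protein, led the list at 198 and 210 CPM. Ap1g1 of the AP-1 adaptor was at 140.3 and 183 CPM and Arfip2 at 94.2 and 89.1 CPM. The COPI subunit Copb2 was at 92.0 and 143 CPM (log2 ratio 0.73). The Arf lists had 1 higher and 2 lower of 15 exchange factors, 1 and 1 of 20 GAPs, and 2 and 1 of 22 genes of the effector list. All these counts are beside the backgrounds of 12.6% higher and 14.3% lower.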

How the data were processed

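Ribosome-bound RNA was sequenced in 2 libraries of 1 group. The deposited values are raw counts per gene symbol, not normalised, with 1 file per library. STAR 2.0.0e, HTSeq and mm10 are named per the submitters' processing notes, while annotation and strandedness were not given in the sources used here. Both tables also hold summary lines and an unknown line at 0, all left out of totals; 65.0% and 64.9% of counts were on gene lines. Depth was 31309643 and 32711412 gene-line counts, and intervals are 95% exact (Clopper-Pearson) counting intervals.

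CPM was computed over gene-line totals. Exon lengths came from the union of GENCODE M21 exons (GRCm38), where 63 of 64 members matched by symbol and Rab1 as a synonym of Rab1a. This annotation may differ from the authors' own. Log2 ratios used edgeR 4.0.16 (TMM, prior count 2), with DESeq2 1.42.0 size factors, library totals and prior count 0.5 as alternatives. The ratio step was tested on simulated data. Promoter windows are from RefSeq, and no protein table was used here.

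The members and lists were chosen with earlier results of these data known. Every member may be named. Full values are given for the 12 highest per kilobase, the Rab3, Rab27 and Arf genes, and the 4 largest ratios each way at a mean CPM of at least 10. Regulators named are the 4 highest per kilobase of each list and any past 2-fold at that level; 1 gene that this rule names is not reported here.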

Additional observations from a re-analysis of the deposited data

Results flagged for a closer look

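Each library also held counts on lines that name no gene and enter no comparison. They are listed because they lie outside the main measurement, and with no control library nothing here says whether their shares are unusual. Of the total, 16.7% in replicate 1 and 17.0% in replicate 2 fell on no feature. A further 2.61% and 2.56% were ambiguous between genes, the class into which reads of overlapping pairs such as Rab24 and Prelid1 can be placed. Alignments that were not unique, the class that takes reads shared with pseudogenes such as Rab7-ps1, came to 15.7% and 15.5%. A group of 2 libraries allows no check for an outlying sample.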

How the results depend on the processing

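With CPM not divided by length, the Rab3a share of its family moved to 53.3% from 84.0% and the Rab share of all members to 63.0% from 66.9%. Leaving out Arf3 moved the summed level to 9230.4 CPM. Leaving out a replicate gave 54 to 56 detected members, a summed level of 12057 to 13450.1 CPM, a Rab3a share of 81.2% to 86.7% and a Rab share of 64.4% to 69.3%. The count of detected members (50 to 56) and of members past 1.5-fold (10 to 15 under other scalings, prior counts and filters) stayed within 1.5 times. Of 224 member ratios under 4 other settings, 219 kept their side of 1.5-fold, 3 lost it, 2 passed it and 0 of those past it turned sign; 42 of 56 members kept their sign in all 5 settings. The length and GC fit and the sum without Arf3 were chosen after seeing the data. No paired analysis was possible because there is only 1 group. With 2 libraries the spread rests on 1 difference per gene, and counts under about 100 leave wide intervals, as for Rab39 (log2 ratio -1.45, interval -2.32 to -0.80).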

Other observations

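The Arf-like (Arl) genes, which lie outside the symbols chosen and were looked at after the members' values were known, held 20 lines, of which 14 were detected and 3 had 0 counts in both libraries. Arl8b and Arl8a, which link lysosomes and synaptic vesicle precursors to kinesin, were the highest per kilobase, at 90.8 and 84.2 for Arl8b and 121 and 72.2 for Arl8a in replicates 1 and 2. Arl8a was lower in replicate 2 (log2 ratio -0.65). Arl6, a GTPase of the ciliary BBSome coat, was at 60.5 and 90.8 CPM, and Arl4d, a partner of cytohesins, was at 5.40 and 21.8 CPM (log2 ratio 2.10, from 169 and 714 counts). Of the 15 averaging 1 CPM or more, 5 passed 1.5-fold upward and 2 downward, beside 12.6% and 14.3% of all genes.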
